A study of Rattus norvegicus with 6 samples.

Results

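The muscle isoforms of creatine, glycogen and respiratory enzymes, 10 genes in all (Ckm, Ckmt2, Cox6a2, Cox7a1, Cox8b, Pygm, Eno3, Pgam2, Ampd1 and Ppp1r3a), are described in the thyroid of adult Sprague-Dawley rats. Whole thyroids were taken from non-pregnant (NP) rats and from rats on day 18 of pregnancy (late pregnancy, LP), and mRNA was sequenced for 3 samples in each group. The genes were picked by symbol, with the difference between LP and NP already known, so their values and calls are given here only as a description, with no p-value. Of the 10 symbols, 8 had a row among the 15388 genes of the count tables, and 2, Ckm and Cox7a1, had none and were not analysed here.

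Striated muscle fibres use their own isoforms of several enzymes of energy metabolism. Creatine kinases (Ckm in the cytosol, Ckmt2 in the mitochondrion) move high-energy phosphate between ATP and creatine. Glycogen phosphorylase (Pygm) and the glycogen-targeting subunit of protein phosphatase 1 (Ppp1r3a) control glycogen, enolase 3 (Eno3) and phosphoglycerate mutase 2 (Pgam2) serve glycolysis, AMP deaminase 1 (Ampd1) clears AMP during work, and Cox6a2, Cox7a1 and Cox8b are the heart and muscle forms of subunits of cytochrome c oxidase, the last complex of the respiratory chain. Most other cells use paralogues of these genes, such as Ckb, Pygb, Eno1 or Cox6a1. Cox7a1 and Cox8b are also known from brown fat.

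The depth was 2752144 to 3449857 counted reads per sample, and 3 reads of a sample came to 0.87 to 1.09 CPM (read counts scaled to the library size), which was used as the floor of detection. Replicates 2 and 3 did not differ beyond sampling noise, in NP as in LP (chi-square per degree of freedom 1.02 in NP and 0.995 in LP, against 3.70 to 4.11 for replicate 1 and either of the others), so each such pair entered the mean ± SD as 1 sample (n = 2). The samples carried the markers of thyroid follicular cells, with thyroglobulin at 22.9% to 24.5% of the reads, and also genes of neighbouring glands (summed parathyroid and C cell markers 9999 to 13185 CPM). The methods give 3 rats for each of these groups, but neither they nor the labels tie a sample to 1 animal, and the spread between replicates 2 and 3 is no larger than that of repeated counts of 1 library. A count near 0 does not show that a gene was silent, because Tpi1, a glycolytic enzyme that every cell uses, was listed with 0, 0 and 0 reads across NP samples and 1, 2 and 0 across LP samples.

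Ckmt2, Cox6a2, Cox8b, Pgam2 and Ppp1r3a, which moved together, are shown first by the DNA before their start sites. Muscle genes are known to share sites there for myogenic factors (the E-box, CANNTG) and for MEF2 proteins. The 150 bases before the start in RefSeq (assembly GRCr8, not the build used for counting) are given 5′ to 3′ on the strand of the gene, with E-boxes and matches to the MEF2 consensus in capitals. Pygm is shown as the member that did not move with the others. Eno3 and Ampd1, which did move with them, are not shown. In these 150 bases each had 1 E-box (CACTTG in Eno3, CAAATG in Ampd1) and no MEF2 match. The windows are chr2:24845512-24845661 (minus strand) for Ckmt2, chr1:192219717-192219866 (minus strand) for Cox6a2, chr1:205408274-205408423 (minus strand) for Cox8b, chr14:84897875-84898024 (minus strand) for Pgam2, chr4:43946237-43946386 (minus strand) for Ppp1r3a and chr1:213119655-213119804 (plus strand) for Pygm.
Ckmt2: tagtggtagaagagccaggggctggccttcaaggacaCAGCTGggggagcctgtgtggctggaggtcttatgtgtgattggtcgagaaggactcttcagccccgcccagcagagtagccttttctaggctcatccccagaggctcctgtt
Cox6a2: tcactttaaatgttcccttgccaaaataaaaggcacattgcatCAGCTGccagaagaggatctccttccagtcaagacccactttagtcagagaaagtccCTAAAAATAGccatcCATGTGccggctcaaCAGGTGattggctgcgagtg
Cox8b: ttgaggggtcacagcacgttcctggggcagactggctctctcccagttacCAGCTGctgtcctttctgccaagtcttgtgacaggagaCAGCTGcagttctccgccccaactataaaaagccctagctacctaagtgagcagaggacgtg
Pgam2: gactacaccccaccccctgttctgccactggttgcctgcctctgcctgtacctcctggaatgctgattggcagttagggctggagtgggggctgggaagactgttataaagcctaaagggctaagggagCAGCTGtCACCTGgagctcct
Ppp1r3a: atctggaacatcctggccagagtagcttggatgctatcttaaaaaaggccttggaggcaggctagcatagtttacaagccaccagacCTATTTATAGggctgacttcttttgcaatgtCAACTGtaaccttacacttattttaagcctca
Pygm: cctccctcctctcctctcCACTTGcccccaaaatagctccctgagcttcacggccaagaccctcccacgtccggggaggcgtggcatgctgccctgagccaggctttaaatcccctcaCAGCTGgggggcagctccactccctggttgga
Ckmt2 had a single E-box in this window, Cox8b had 2 with the same core and a TATAAA close to the start, and a MEF2 match lay beside 3 E-boxes in Cox6a2 and beside 1 in Ppp1r3a. In the wider window of 250 bases before the start, all 10 members matched the E-box on either strand, against 65.5% of the 33469 promoters of this length. The MEF2 consensus was matched by 3 members (Cox6a2, Ampd1 and Ppp1r3a) against 2.96% of all promoters, TATAAA by 4 (Cox8b, Pgam2, Ampd1 and Ppp1r3a) against 12.9%, the MCAT motif CATTCC by 2 (Eno3 and Pgam2) against 12.1%, and the CArG box by 0 against 1.5%. RefSeq held 17 windows for some of the members' counterparts outside striated muscle, not all of them ubiquitous genes. They included 2 of Eno1. Those of Cox8c, Eno2 and Ppp1r3f were among them, although these genes had no row in the counts. None matched by symbol for Ckmt1b, Cox6a1, Ampd3 and Ppp1r3b. Of the 17 windows, 11 matched the E-box and 1, that of Ckb, the MEF2 consensus. In Ppp1r3a the TATAAA match, on the opposite strand, lay within the MEF2 match. Pygm, whose level did not follow the group, had E-boxes like the others. A match is only a match of letters, and both strands were searched.

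In thyroid RNA, 7 of the 8 measured members were well above the limit of detection in LP and near it in NP. Their mean LP levels ran from 11.7 CPM (Pgam2) to 233 CPM (Ckmt2). The eighth, Pygm, did not differ between the groups in this way. The members together took 16 to 32 reads in an NP sample and 2400 to 2443 reads in an LP sample. Except for Pygm, no member had more than 8 reads in an NP sample or fewer than 34 in an LP sample. By the criteria of the study (fold change above 2, adjusted p-value below 0.05, here from edgeR's quasi-likelihood test) 7 of 8 members were called higher in LP, where 4.9% of the 11738 genes tested were called in that direction and 0.537% in the other. For 7 of 8 members every LP sample lay above every NP sample, as it did for 21.1% of all genes tested. The median log2 ratio of LP to NP over the 8 members was 6.02, with Ppp1r3a at its lower bound, and the median log2 fold change of all genes tested was -0.0091. These figures describe members chosen for this difference. All 8 passed the filter on low counts, 7 of them through their LP samples, so that these had to differ. In bulk RNA, more cells of a type and more RNA per cell cannot be told apart.

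**Figure D1:**
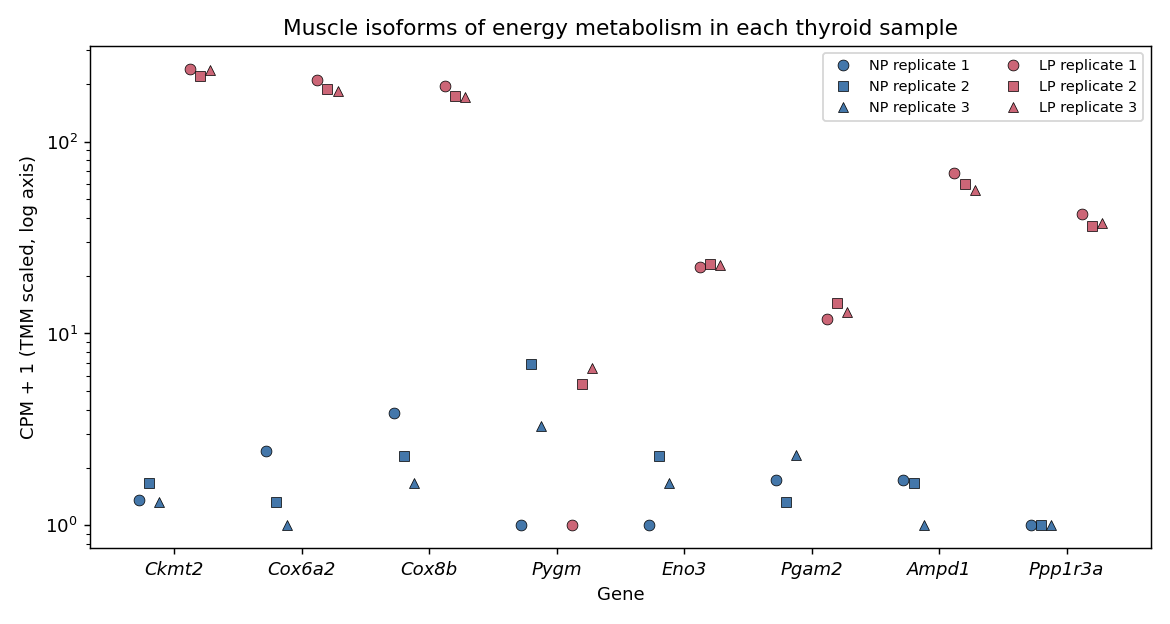
Level of each of the 8 measured muscle isoforms in every sample, as CPM + 1 on a log axis, with NP in blue, LP in red and a symbol for each replicate. The LP points of 7 genes lie above all their NP points, and Pygm alone has overlapping groups, with replicate 1 of both groups at 0 reads.

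Ckmt2, the mitochondrial creatine kinase of striated muscle, gave 1, 2 and 1 reads across NP replicates 1, 2 and 3, in the order kept below, and 747, 737 and 796 across LP replicates. Its level was 0.425 ± 0.0951 CPM (SD, n = 2) in NP and 233 ± 7.83 CPM in LP. With 4 reads in all NP samples, the ratio of LP to NP was 514 with a 95% counting interval of 200.3 to 1887, so that its size is known only within that range. Here and below, the intervals cover counting error only. Its counterpart Ckmt1b, the mitochondrial creatine kinase of other tissues, gave 236, 245 and 239 reads across NP samples and 280, 286 and 299 across LP samples. The log2 fold change of Ckmt1b was 0.11 (SE, standard error of the fit, 0.065), which did not pass the test (adjusted p = 0.252, edgeR). Ckmt2 thus took 0.518% ± 0.135 of the reads on these 2 genes in NP and 72.6% ± 0.26 in LP. Such shares count reads without correction for gene length.

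Ckb, the cytosolic creatine kinase of brain and other tissues, stands beside Ckm, which was not analysed here. Ckb gave 335, 455 and 491 reads across NP samples and 351, 508 and 511 across LP samples, with overlapping groups and the lower value in replicate 1 of each. Its log2 change was -0.05 (SE 0.11, adjusted p = 0.767, edgeR). Of the 3 other genes of the creatine pathway, the creatine transporter Slc6a8 rose by 0.35 on the log2 scale (SE 0.066, adjusted p = 0.00054, edgeR). The enzymes of creatine synthesis, Gamt and Gatm, did not pass the test, with log2 fold changes of 0.32 (SE 0.12) and 0.24 (SE 0.37). Gamt was at the edge (adjusted p = 0.0599, edgeR, and 0.0431 when the replicate number was a block, but 0.0645 with the block when replicates 2 and 3 were summed).

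The muscle forms of cytochrome c oxidase subunits were near 0 in NP and high in LP. Cox6a2 gave 4, 1 and 0 reads across NP samples and 653, 631 and 617 across LP samples. Mean levels were 0.796 ± 0.895 (SD, n = 2) and 197 ± 16.5 CPM. The ratio was 343 (95% counting interval 147 to 1056), and leaving out NP replicate 1, which held 4 of the 5 NP reads, moved the log2 fold change from 8.32 to 9.89. Cox8b gave 8, 4 and 2 reads across NP samples and 604, 579 and 572 across LP samples. Mean levels were 1.92 ± 1.33 and 182 ± 15.6 CPM. Its ratio was 113 (95% counting interval 67.1 to 207), and without NP replicate 1 its log2 change was 7.44 in place of 6.79. In NP, replicate 1 thus held the most reads of both genes, and in LP the 3 samples lay close together.

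The ubiquitous forms of these subunits and the related gene Cox7a2l had log2 fold changes between -0.22 and 0.72. Cox6a1 gave 526, 657 and 582 reads across NP samples and 564, 583 and 593 across LP samples, a log2 change of -0.17 (SE 0.063) that did not pass the test (adjusted p = 0.0571, edgeR) and passed it when the replicate number was a block (adjusted p = 0.00387), without NP replicate 1 (0.0218) or without LP replicate 1 (0.046). Cox8a, at 256 ± 28.3 CPM (SD, n = 2) in NP and 226 ± 2.12 CPM in LP, fell by 0.22 on the log2 scale (SE 0.064, adjusted p = 0.0176, edgeR). That call was lost with replicates 2 and 3 of each group summed (adjusted p = 0.145) and without NP replicate 2 or 3 or LP replicate 2 or 3 (0.0513 to 0.0811). Cox7a2, the counterpart of Cox7a1, rose by 0.72 on the log2 scale (SE 0.079, adjusted p = 2.03e-06, edgeR), and Cox7a2l did not pass the test (log2 fold change -0.01, SE 0.065). As a share of the reads on both forms, Cox6a2 went from 0.415% ± 0.48 (SD, n = 2) in NP to 52.6% ± 1.54 in LP, and Cox8b from 0.775% ± 0.595 to 44.6% ± 2.36.

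The nuclear-encoded subunits of the same complex that have no muscle form in the list rose by less than 2-fold where they were tested. All 7 of these rose, with log2 fold changes between 0.46 for Cox7c and 0.96 for Cox5a, where 15.3% of all genes tested rose at an adjusted p-value below 0.05. Cox4i1, which had the most reads, gave 836, 875 and 929 reads across NP samples and 1368, 1406 and 1372 across LP samples (log2 fold change 0.50, SE 0.052, adjusted p = 9.67e-07, edgeR). Cox4i2 and Cox6b2, the hypoxia-linked and testis forms, were below the filter on low counts and not tested, with 6, 11 and 15 reads of Cox4i2 across NP samples and 7, 10 and 3 across LP samples, and at most 3 reads of Cox6b2 in any sample.

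The members of glycogen metabolism did not move alike. Ppp1r3a, which holds protein phosphatase 1 on glycogen in muscle, had 0 reads in every NP sample and 128, 119 and 123 in LP, where its mean level was 38.4 ± 3.51 CPM (SD, n = 2). Against 3 reads in each NP sample, its level in LP was at least 37.1-fold higher. Pygm is the phosphorylase that releases glucose phosphate from glycogen in muscle. It gave 0, 18 and 7 reads across NP samples and 0, 15 and 19 across LP samples. Its level was 2.05 ± 2.90 CPM in NP and 2.52 ± 3.57 CPM in LP, with overlapping groups, and its ratio was 1.23 (95% counting interval 0.71 to 2.14). Replicate 1 of both groups had no read of Pygm. In LP this allows a level of up to 0.93 CPM (3 reads scaled to the library size alone). The same LP sample had 747 reads of Ckmt2. Left out in turn, the samples moved its log2 fold change from 0.29 to between -0.29 (without LP replicate 3) and 1.48 (without NP replicate 2), so that no direction can be given for Pygm. As for Tpi1, its low counts do not show a low level.

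The pattern of Pygm over the samples was that of the replicate number and not of the group. Gys1, the glycogen synthase of muscle and many other tissues, also had 0 reads in replicate 1 of both groups and 12, 6, 13 and 13 reads in the other samples (NP replicates 2 and 3, LP replicates 2 and 3). Among the skeletal muscle markers, the actin Acta1 gave 0, 166 and 144 reads across NP samples and 0, 186 and 185 across LP samples. Smooth muscle genes were also low in replicate 1, with Actg2 at 4, 610 and 542 reads across NP samples and 5, 641 and 595 across LP samples. The calsequestrin Casq1 and the myosin-binding protein Mybpc2, both of fast skeletal fibres, had at most 4 reads in any sample. The part of smooth muscle RNA in the counts of Pygm was not tested. These genes were named after their values were seen.

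**Figure D2:**
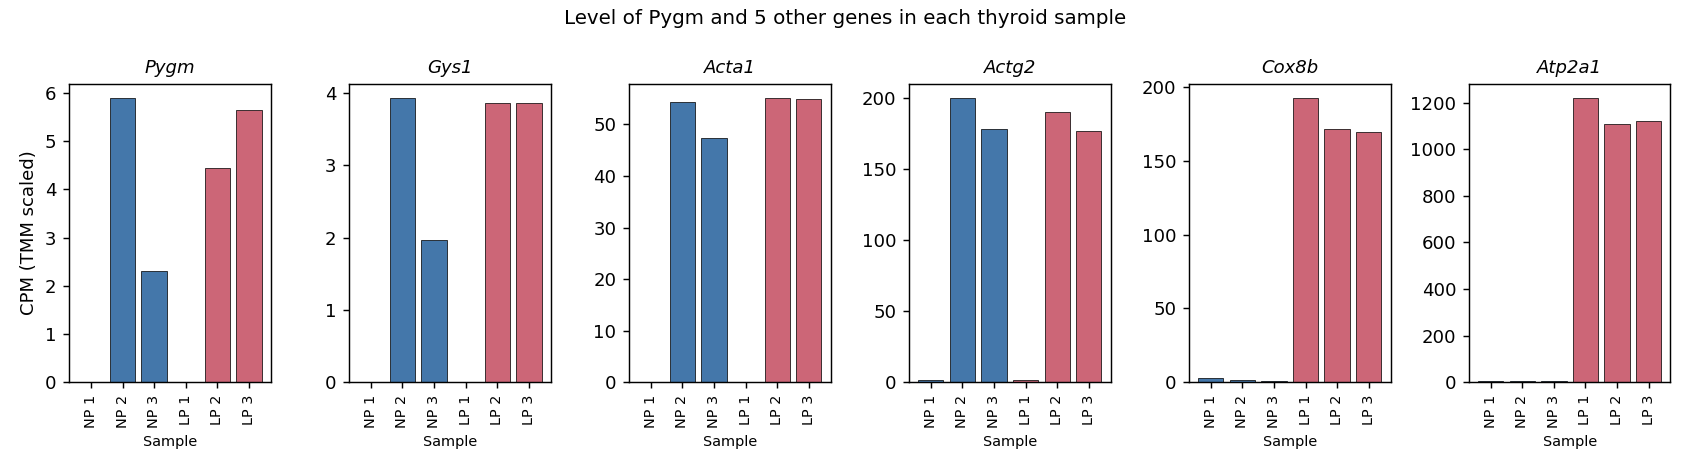
TMM-scaled CPM of 6 genes in each sample, each panel with its own axis from 0, NP in blue and LP in red. Pygm, Gys1, Acta1 and Actg2 are at or near 0 in replicate 1 of both groups, while Cox8b and the calcium pump Atp2a1 are near 0 in all NP samples and high in all LP samples.

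Of all counterparts, the largest called changes in either direction were those of Pygb and Ppp1r3c. Pygb, the brain-type phosphorylase, gave 998, 1068 and 1016 reads across NP samples and 610, 618 and 681 across LP samples, and fell by 0.84 on the log2 scale (SE 0.057, adjusted p = 3.71e-09, edgeR). All LP samples lay below all NP samples. Pygl, the liver form, had a log2 change of -0.16 (SE 0.091, adjusted p = 0.227). Ppp1r3c, a targeting subunit of many tissues, gave 102, 102 and 101 reads across NP samples and 244, 272 and 251 across LP samples, and rose by 1.18 on the log2 scale (SE 0.082, adjusted p = 4.71e-09, edgeR). Ppp1r3b gave 18, 18 and 21 reads across NP samples and 31, 37 and 29 across LP samples, and its log2 change of 0.61 (SE 0.22) was at the edge of the test, with adjusted p = 0.0496 from edgeR, between 0.0568 and 0.165 with any 1 sample left out, and 0.286 with DESeq2. Ppp1r3d and Ppp1r3e did not pass the test, and Ppp1r3g had at most 3 reads in a sample.

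Of the 19 other genes of glycogen metabolism, 16 were tested, of which 10 rose and 1 fell, against 15.3% and 11.7% of all genes tested. Changes above 2-fold were found for 6 of them, all higher in LP. Phosphorylase kinase, which switches phosphorylase on, has subunits with muscle and other forms. The muscle catalytic subunit Phkg1 gave 3, 5 and 4 reads across NP samples and 129, 109 and 109 across LP samples, a log2 change of 4.66 (SE 0.25, adjusted p = 1.17e-10, edgeR). The liver and testis form Phkg2 gave 400, 441 and 389 reads across NP samples and 406, 376 and 422 across LP samples, with overlapping groups (log2 fold change -0.18, SE 0.068, adjusted p = 0.0604, and 0.0105 with the replicate block, 0.0242 without NP replicate 3 and 0.0254 without LP replicate 1). The muscle regulatory subunit Phka1 went from 25.3 ± 1.97 CPM (SD, n = 2) to 116 ± 7.88 CPM, while the liver form Phka2 had at most 6 reads in a sample and was not tested. Phkb, the beta subunit shared by muscle and other tissues, rose by 0.73 on the log2 scale (SE 0.094, adjusted p = 1.08e-05, edgeR).

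Other genes with changes above 2-fold included Pgm1, which interconverts glucose phosphates (log2 fold change 2.00), glycogenin Gyg1 (1.41) and Nhlrc1, the ubiquitin ligase malin (1.39), with standard errors between 0.063 and 0.28. Stbd1, a glycogen-binding protein, fell by 0.28 (SE 0.069, adjusted p = 0.00616 with edgeR and 0.1 with DESeq2). The phosphatase subunits that Ppp1r3a binds did not pass the test, and Ppp1ca, which had the most reads, was at 237 ± 9.86 CPM in NP and 218 ± 7.71 CPM in LP (adjusted p = 0.187, edgeR, and 0.0367 with the replicate block).

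The glycolytic members were near 0 in NP and measured in every LP sample. Eno3, the enolase of muscle, gave 0, 4 and 2 reads across NP samples and 66, 74 and 73 across LP samples. Mean levels were 0.492 ± 0.695 (SD, n = 2) and 21.4 ± 0.52 CPM. Its ratio was 32.0 (95% counting interval 14.5 to 88.1), and without NP replicate 2 its log2 change was 5.82 in place of 4.92. Pgam2, the muscle mutase, gave 2, 1 and 4 reads across NP samples and 34, 45 and 40 across LP samples. Mean levels were 0.768 ± 0.0749 and 11.7 ± 1.24 CPM, with a ratio of 15.3 (95% counting interval 7.21 to 38.9). Among the 7 members that were higher in LP, these 2 had the smallest ratios. The groups did not overlap for either gene.

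Eno1, the enolase of most cells, gave 55, 45 and 45 reads across NP samples and 51, 58 and 59 across LP samples and did not pass the test (log2 fold change 0.06, SE 0.16, adjusted p = 0.83, edgeR). Pgam1 gave 533, 593 and 555 reads across NP samples and 541, 549 and 541 across LP samples, and fell by 0.19 on the log2 scale (SE 0.058, adjusted p = 0.0195, edgeR), a call lost with replicates 2 and 3 summed (adjusted p = 0.106), with DESeq2 (0.0845) and without NP replicate 2 or LP replicate 2 or 3 (0.0727 to 0.0916). Eno3 took 3.10% ± 4.39 (SD, n = 2) of the reads on both enolases in NP and 56.0% ± 0.515 in LP, and Pgam2 took 0.408% ± 0.0482 of the reads on both mutases in NP and 6.57% ± 0.931 in LP. The share of Eno3 rests on a low count of Eno1, at 17.2 CPM in NP, where Pgam1 was at 189 CPM and Pgk1 at 225 CPM. Whether reads of Eno1 were lost in counting was not tested. Several of these genes have closely similar copies, and how reads on copies were counted is not given in the sources used here, so the shares are uncertain to that extent.

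**Figure D3:**
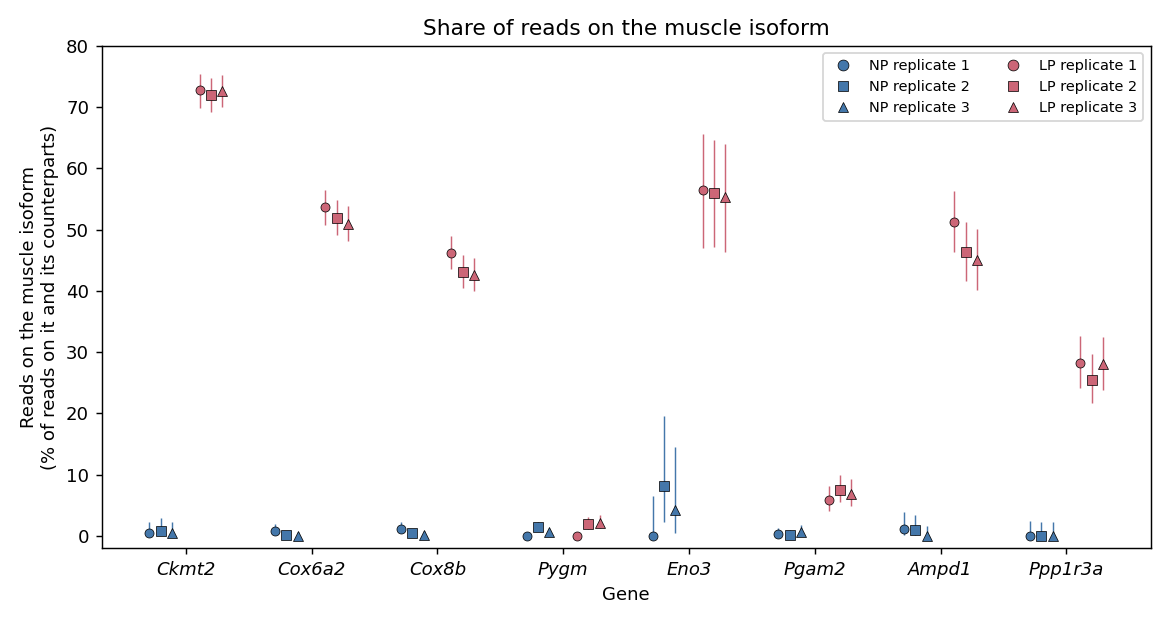
Share of reads that fell on each muscle isoform among the reads on it and its counterparts, in percent, for every sample, with exact 95% binomial intervals as bars. In LP the share was between 42.7% and 72.7% for Ckmt2, Cox6a2, Cox8b, Eno3 and Ampd1, lower for Ppp1r3a and Pgam2, and at most 2.16% for Pygm.

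Among the other genes of glycolysis, 21 of 24 with a row were tested, 14 rose and 2 fell, and 8 rose above 2-fold, against 15.3%, 11.7% and 4.9% of all genes tested. The share that fell was thus near that of all genes. The largest log2 fold changes were those of Slc2a4, the insulin-regulated glucose transporter of muscle and fat (3.88, SE 0.088), Fbp2, the fructose bisphosphatase of muscle (3.53, SE 0.40), Pfkm, the phosphofructokinase of muscle (3.18, SE 0.15), and Pfkfb1 (2.54, SE 0.32). Slc2a4 gave 30, 33 and 38 reads across NP samples and 538, 546 and 570 across LP samples. Aldoa, the aldolase of muscle and most other cells, gave 2140, 2219 and 2210 reads across NP samples and 10632, 10850 and 10546 across LP samples, a log2 change of 2.14 (SE 0.038, adjusted p = 2.96e-17, edgeR). The remaining 3 were Gpd1 (1.30), Pkm (1.16) and Ldhb (1.14). The other forms of phosphofructokinase moved by less, with Pfkl at 0.18 (adjusted p = 0.0216, edgeR) and Pfkp at -0.29 (adjusted p = 0.00205). The call of Pfkl was lost with DESeq2 (0.0913), with replicates 2 and 3 summed (0.0985) and without NP replicate 1 or 3 or LP replicate 2 or 3 (0.0514 to 0.102). Hk1 fell by 0.26 (SE 0.062, adjusted p = 0.00426, edgeR), and Slc2a1, the transporter of most cells, was at 156 ± 18.5 CPM (SD, n = 2) in NP and 161 ± 1.81 CPM in LP and did not pass the test.

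Ampd1, which deaminates AMP in working muscle, gave 2, 2 and 0 reads across NP samples and 211, 200 and 184 across LP samples. Its level was 0.521 ± 0.274 CPM (SD, n = 2) in NP and 62.2 ± 7.35 CPM in LP, a ratio of 134 (95% counting interval 52.1 to 494). The counterparts Ampd2 and Ampd3 did not pass the test, with log2 fold changes of 0.09 (SE 0.093) and -0.27 (SE 0.14). Ampd1 took 0.799% ± 0.441 of the reads on the 3 deaminases in NP and 48.5% ± 3.95 in LP. In the purine nucleotide cycle, which returns the product of AMP deamination to AMP, the muscle form of adenylosuccinate synthase (Adssl1) gave 73, 63 and 61 reads across NP samples and 1093, 1102 and 1142 across LP samples, a log2 change of 3.93 (SE 0.083, adjusted p = 3.02e-16, edgeR). The other form (Adss) gave 293, 315 and 320 reads across NP samples and 304, 323 and 296 across LP samples (log2 fold change -0.16, SE 0.063, adjusted p = 0.0748). The adenylate kinase Ak1 rose by 1.55 on the log2 scale (SE 0.073), Adsl by 0.79 (SE 0.098), and Ak3, an adenylate kinase of mitochondria, fell by 0.26 (SE 0.079), with adjusted p-values from edgeR of 2.26e-11, 7.65e-06 and 0.0185. The call of Ak3 was lost with DESeq2 (adjusted p = 0.157), with replicates 2 and 3 summed (0.0531) and without NP replicate 2 or 3 or LP replicate 1 or 2 (0.0593 to 0.0793).

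Over all 16 counterparts tested, 3 rose (Ppp1r3c, Cox7a2 and Ppp1r3b) and 3 fell (Pygb, Cox8a and Pgam1), against 27% of all genes tested that passed in either direction, and their median log2 change was 0.02. With replicates 2 and 3 of each group summed, 2 rose and 1 fell. Of the 53 other pathway genes tested, 35 rose and 4 fell, with a median log2 fold change of 0.53 and 16 of them past 2-fold, all higher in LP. With replicates 2 and 3 summed, 34 rose and 3 fell. The lists were written with earlier results of these samples known.

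**Figure D4:**
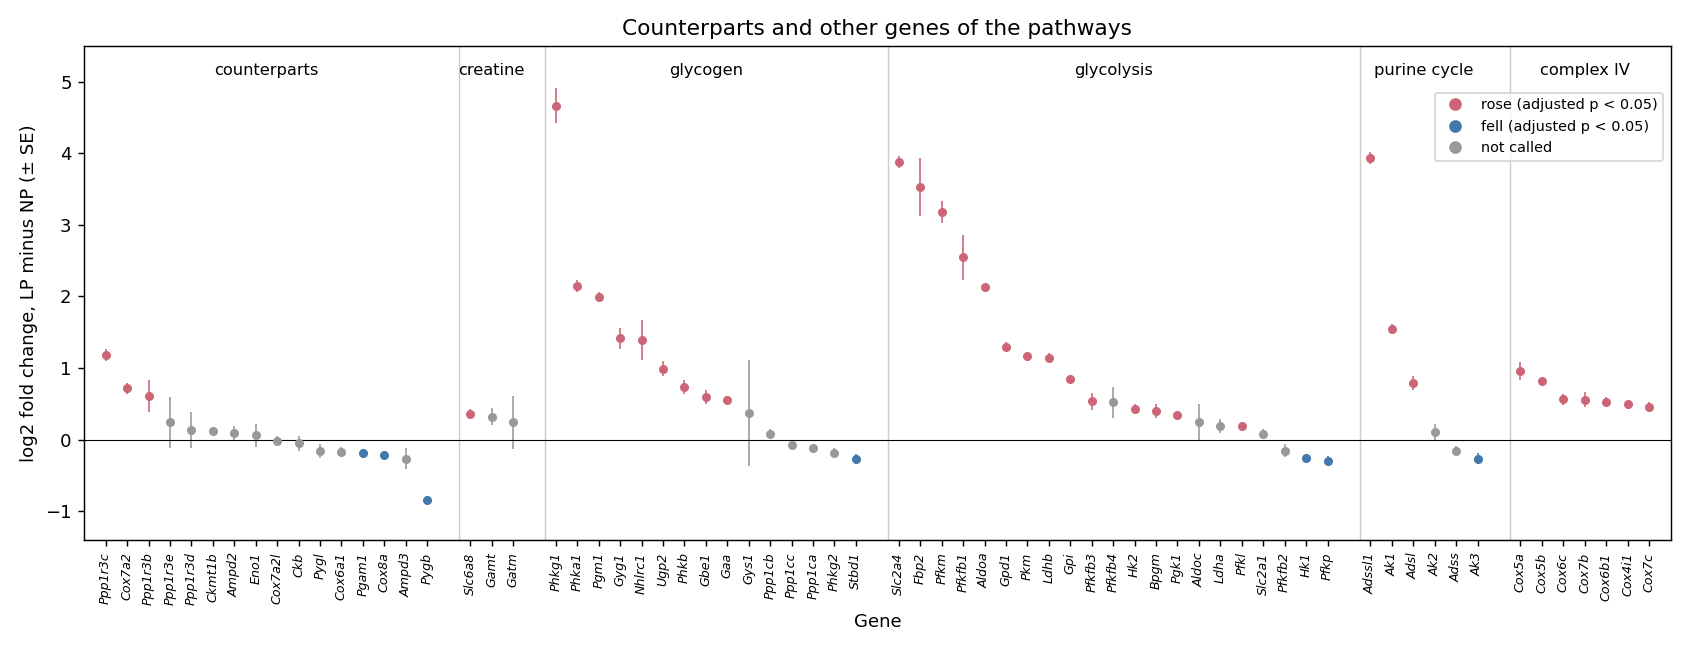
Log2 fold change (LP minus NP) with its standard error for the 16 counterparts and the other pathway genes tested except 1 that is not shown, grouped by list and coloured by edgeR's test. The counterparts lie around 0 with Ppp1r3c at 1.18 and Pygb at -0.84 as the extremes, the 7 subunits of complex IV lie between 0.46 and 0.96, and Phkg1, Adssl1 and Slc2a4 are the highest of the other lists.

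Most markers of skeletal muscle outside energy metabolism moved with the members. Of 28 markers, 24 had a row and 21 were tested. All but Acta1, 20 genes, were called higher in LP past 2-fold, as were 4.9% of all genes tested. The median log2 fold change over the 21 was 7.66. Among the untested, Casq1 gave 0, 4 and 2 reads across NP samples and 0, 2 and 1 across LP samples. Mybpc2 gave 0, 1 and 3 across NP samples and 0, 1 and 1 across LP samples, so neither rose. Mylpf, also untested, gave 9, 15 and 13 reads across LP samples. The summed level of the markers was 40.0 to 88.7 CPM in NP and 6749 to 7153 CPM in LP, and without Acta1 31.4 to 41.4 CPM in NP and 6694 to 7153 CPM in LP. Tnnc2, Neb and Atp2a1 had the most reads, with Tnnc2 at 22, 14 and 26 reads across NP samples and 4554, 4532 and 4641 across LP samples. Myh1, Mylpf and Mybpc1 were at 0 in every NP sample, and Myh2, Myh4, Myh7 and Ttn were not analysed here. The members together had 10.5 to 10.9 reads for every 100 reads on these markers in the 3 LP samples, and 5.93 to 15.2 in the NP samples, which rest on at most 32 member reads. The NP ratios also include Acta1 and Pygm. Acta1 gave 166 of 262 marker reads in NP replicate 2 and 144 of 270 in NP replicate 3. Pygm gave 18 of the 32 member reads in NP replicate 2. The part of skeletal muscle RNA in the members' levels was not tested.

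Markers of heart, fat and smooth muscle, where some of these isoforms are also known, gave the following values. Of the 7 heart markers with a row, Myl4 and Myl3, the latter also used by skeletal fibres, were called higher in LP. The others were not tested. Nppa, Myl7, Mybpc3 and Tnni3 had at most 7 reads in a sample and Ryr2 at most 10. Of 8 fat markers with a row, none of the 6 tested passed the test (0 with edgeR and 0 with DESeq2 at an adjusted p-value below 0.05, and 0 with either at an unadjusted one), and their summed level was 127 to 146 CPM in NP and 129 to 154 CPM in LP. Ucp1, the defining gene of brown fat, was below the filter with 12, 9 and 9 reads across NP samples and 2, 4 and 4 across LP samples. Without the filter it was called lower in LP (log2 fold change -1.70, SE 0.47, adjusted p = 0.0116, edgeR). Of 7 smooth muscle markers only desmin (Des), which skeletal fibres also express, was called (2 rose and 1 fell with the replicate block), and the summed level of the list was 286 to 2004 CPM in NP and 918 to 2657 CPM in LP, lowest in replicate 1 of each group. Of 11 thyroid markers, 10 were tested, 3 rose and 2 fell, none past 2-fold, where 15.3% and 11.7% of all genes tested rose and fell. Of 4 parathyroid and C cell markers, 2 fell, also by less than 2-fold.

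Within LP, the 7 members other than Pygm varied little between samples, the highest level being between 1.04 times (Eno3) and 1.23 times (Ampd1) the lowest. Replicate 1 was the highest LP sample for Ckmt2, Cox6a2, Cox8b, Ampd1 and Ppp1r3a and the lowest for Eno3 and Pgam2. Over the 6 samples, the 5 other genes whose log2(CPM + 1), centred on its mean, lay closest to the median profile of the members were Rbfox1, Murc, Myh1, the unnamed gene AABR07052585.2 and Apobec2, at Euclidean distances between 0.415 and 0.443. For comparison, the members themselves lay between 0.323 (Ampd1) and 7.00 (Pygm) from that profile. Rbfox1 gave 1, 0 and 0 reads across NP samples and 130, 121 and 145 across LP samples, and Murc 0 in each NP sample and 127, 149 and 142 in LP.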

How the data were processed

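mRNA of thyroids from 3 NP and 3 LP samples was sequenced. The authors mapped reads to rn5 with TopHat 1.4.0 and counted them with HTSeq on Ensembl gene models. They deposited raw read counts per gene without normalization. The methods name the Ensembl release but not the build of its models, and whether that build was rn5 was not tested. The counts were then tested with edgeR 4.0.16 under R 4.3.3 (glmQLFit and glmQLFTest, TMM normalization, default filter on low counts, Benjamini-Hochberg adjustment over 11738 genes) on all 6 samples, with DESeq2 1.42.0 as an alternative. A gene rose or fell at an adjusted p-value below 0.05. Standard errors (SE) were derived from the F statistic (size of the log2 change over the root of F). CPM values are TMM scaled, except those of the floor of detection, which are scaled to the library size alone. Ratios of group sums have exact conditional intervals. Treating replicates 2 and 3 as separate samples may make the p-values too small. The steps were tested on simulated counts.

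Deviations from the group means, correlated across genes for samples of the same replicate number, were 0.483, 0.216 and 0.183 for numbers 1, 2 and 3, so the numbers were taken to pair the samples. The block rests on these correlations, since neither the labels nor the methods explain the numbers. Replicates 2 and 3 correlated equally when crossed (0.207 and 0.209), so the values set replicate 1 apart and do not pair 2 and 3 by number.

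The members and lists were chosen with earlier results of these data known. Named were all members and tested counterparts, pathway genes past 2-fold (at most 8 a list), the best-measured uncalled gene of a list, defining or abundant markers, and the 5 closest profiles, and other genes were named after their values were seen. Promoters were matched by symbol to RefSeq (10 of 10 members). 1 pathway gene is included in the counts and not reported here by itself.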

Additional observations from a re-analysis of the deposited data

How the results depend on the processing

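The number of members called higher in LP was 7 under every alternative except a filter on a mean of 50 reads per sample, which removed Eno3, Pgam2 and Pygm and left 5. The members were chosen for this difference, so this number is only a description. Low NP counts limit the size of the members' ratios. Under the replicate block 37 pathway genes rose and 6 fell, and 3 counterparts rose and 4 fell. The block also gave 2 smooth muscle markers that rose and 1 that fell, the same numbers as with replicates 2 and 3 summed and the block, where there were 1 and 0 without the block. It gave 1 parathyroid or C cell marker that rose, in place of 0, and 0 again with replicates 2 and 3 summed and the block. DESeq2 called 703 genes lower in LP in place of 1378 and 2 pathway genes lower in place of 4. The filter on a mean of 50 reads left 286 genes higher and 29 lower past 2-fold, in place of 575 and 63, and 0 heart markers. Fat markers that fell numbered 1 without a filter (Ucp1) and 1 with replicates 2 and 3 summed, without or with the block. Counterparts that fell numbered 1 with replicates 2 and 3 summed, and between 1 and 4 with each sample left out in turn, with 1 left without NP replicate 2 or without LP replicate 2 or 3. Leaving out samples gave 0 to 1 parathyroid or C cell markers and 1 to 2 smooth muscle markers that rose. The causes were not tested. For the 69 counterparts and pathway genes tested, 908 of 956 values under alternatives kept their direction and their side of the threshold, 33 lost the call, 15 gained it and 0 were reversed. Beside the changes named here and above, the block also gave Ldha as higher (adjusted p = 0.0221, edgeR) and changed no other call of these genes.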

Other observations

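Beside Pygm and Gys1, some other genes of these pathways had lower counts in replicate 1 of both groups. Gatm, the first enzyme of creatine synthesis, gave 10, 43 and 33 reads across NP samples and 16, 52 and 45 across LP samples, and Ckb gave 335, 455 and 491 reads across NP samples and 351, 508 and 511 across LP samples. Neither passed the test between the groups.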
